A study of Mus musculus with 6 samples.

Results

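Prdm1, Xbp1 and Bhlha15 encode 3 transcription factors of antibody-secreting and other secretory cells. They were taken as the rows of the authors' deposited table of changed probe sets that carry these symbols, Bhlha15 under its older name Bhlhb8. Each symbol had 1 row, so the group held 3 of the 225 genes that have a name there and 3 of the 35557 probe sets on the arrays. The genes were proposed because they were higher with tamoxifen on these same arrays. Their values in that comparison are therefore given as a description and carry no test.

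The study used mouse pro-B cells made into a continuous line with Abelson murine leukaemia virus, whose kinase drives B lineage precursors to divide in culture. All cells, controls included, carried a retrovirus that expresses Gfi1b, a zinc finger repressor of blood cell genes, joined to the estrogen receptor domain, which holds a fused protein inactive until tamoxifen binds. A group of 3 cultures was left untreated, and the other group of 3 was kept for 12 h in tamoxifen, given as OHT in the sample titles. Total RNA of each culture went onto 1 array. Cells without the fusion were not analysed here, so an effect of tamoxifen alone cannot be told apart from that of the fusion. The result is also that of a single line. In bulk RNA, a larger share of cells making a transcript and more of it per cell cannot be told apart.

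Plasma cells arise when a B cell gives up its identity and builds a large endoplasmic reticulum for secretion. Blimp-1, the product of Prdm1, is the repressor that shuts down B cell genes such as Pax5, Spib and Ciita and is needed for full antibody secretion. XBP1 is a leucine zipper activator of genes for protein folding and export. Its RNA is spliced by the stress sensor IRE1 into the form that encodes the strong activator, and the forms were not measured separately here. MIST1, the product of Bhlha15, is a basic helix-loop-helix factor of plasma cells and exocrine glands that shapes the secretory machinery and is a known target of XBP1. None of these programs is a usual trait of pro-B cells, which are better known for rearranging their heavy chain genes.

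The promoter windows of the 3 genes are shown because the genes were higher together and because the induced protein, like its relative GFI1, binds DNA through a site with the core AATC. Each window is the 250 bases before the gene's start in RefSeq's table for GRCm38.p6, read 5′ to 3′ on the gene's strand, and capitals mark AATC or its reverse complement GATT. Prdm1 lies on the minus strand (chr10:44458749-44458998), Xbp1 on the plus strand (chr11:5520391-5520640) and Bhlha15 on the plus strand (chr5:144190036-144190285).
Prdm1: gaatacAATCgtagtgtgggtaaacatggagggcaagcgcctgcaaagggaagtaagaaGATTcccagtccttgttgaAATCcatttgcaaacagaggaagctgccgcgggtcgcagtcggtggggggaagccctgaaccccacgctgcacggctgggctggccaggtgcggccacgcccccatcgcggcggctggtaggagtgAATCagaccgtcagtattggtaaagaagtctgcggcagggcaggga
Xbp1: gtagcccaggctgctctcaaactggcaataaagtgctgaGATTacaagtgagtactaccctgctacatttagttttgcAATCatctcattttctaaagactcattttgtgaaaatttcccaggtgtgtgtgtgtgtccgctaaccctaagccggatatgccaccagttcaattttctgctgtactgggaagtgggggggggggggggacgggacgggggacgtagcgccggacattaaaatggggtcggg
Bhlha15: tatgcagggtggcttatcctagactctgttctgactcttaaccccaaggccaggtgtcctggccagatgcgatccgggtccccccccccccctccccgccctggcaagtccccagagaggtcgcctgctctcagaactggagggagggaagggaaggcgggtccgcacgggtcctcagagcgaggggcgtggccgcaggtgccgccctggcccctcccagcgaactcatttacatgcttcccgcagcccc

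The AATC core matched 4 times in the Prdm1 window, 2 times in that of Xbp1 and 0 times in that of Bhlha15. It is a short word, and 69.0% of all 32841 windows of this length hold it on either strand. The longer site AAATCA, which contains the core, matched in none of the 3 and in 12.4% of all windows. E-boxes, the CANNTG sites read by basic helix-loop-helix proteins such as MIST1, matched 2 times before Prdm1, 2 times before Xbp1 and 3 times before Bhlha15, against 66.2% of all windows with at least 1. The form CAGGTG occurred in all 3 windows, 87 bases before the start of Prdm1, 131 before that of Xbp1 and 200 and 55 before that of Bhlha15. This form was picked out among the E-box matches and not searched on its own. Its share of all windows was not counted, so nothing is read from its presence in all 3. Its reverse complement CACCTG also occurred before Sec24d, a gene described below. The symmetric form CAGCTG, itself an E-box, occurred in none of the 3 and in 13.0% of all windows. The XBP1 core ACGTG was absent from the 3 windows and present in 16.6% of all. CCACG, one end of the endoplasmic reticulum stress element, which can overlap ACGTG by 3 bases, matched 2 times before Prdm1 and 1 time before Bhlha15, against 28.4% of all windows. The Blimp-1 core GAAAG and the longer GTGAAAG matched in none of the 3, and in 51.5% and 3.57% of all windows. All motifs were searched on both strands. A match describes the letters of the window and is not a binding site, and nothing about a factor follows from a missing match. GC content was 59.2% before Prdm1, 50.4% before Xbp1 and 66.8% before Bhlha15, beside a median of 52.4% over all windows.

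The 6 arrays had medians between 7.52 and 7.61 on the log2 scale, and with 3 arrays a group every value is of limited precision. They did not separate by treatment alone. Component 1, with 46% of the variance, had scores of -30.6 and -26.5 for replicates 1 and 3 of the untreated group and of 26.6 and 23.4 for the same numbers of the tamoxifen group. The arrays of replicate 2 lay in the reverse order, untreated at 9.74 and tamoxifen at -2.67, so values are also given without them. Of the 17 pro-B and pre-B marker genes, 5 have a name in the table, and 3 of these, Cd79b, Rag1 and Blk, averaged 11.70, 11.34 and 11.94 in untreated cells, above the upper quartile of every array (9.63 at most). The remaining ones were dimmer: Spib averaged 9.53, within the range of the upper quartiles, and Rag2 averaged 8.72, below all of them (9.519 at least). Of the 8 myeloid markers the lysozyme genes Lyz1 and Lyz2 have a name, and both rose (largest limma adjusted p = 0.011). Of the 8 T cell markers Tcf7 and Zap70 have one, and Tcf7 rose (limma adjusted p = 0.0060). Lyz1 ranged from 7.23 to 7.26 in untreated and from 7.88 to 7.90 in treated cells, Lyz2 from 8.02 to 8.25 and from 9.26 to 9.60. Tcf7 ranged from 7.38 to 7.48 and from 8.23 to 8.33. Zap70 ranged from 6.82 to 7.09 and from 7.50 to 7.82 without passing (limma adjusted p = 0.078). Untreated values of Lyz1, Tcf7 and Zap70 lay below the median of every array (7.52 at least), so the size of their differences is uncertain. The part of these myeloid and T cell markers in the values below was not tested. Markers without a name in the table, which include all of those listed for erythroid and exocrine cells, were not analysed here.

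Bhlha15 had the largest difference of the 3. Its probe set (10527323), for a gene on chromosome 5, read 8.48, 8.52 and 8.44 (log2) in untreated replicates 1, 2 and 3. With tamoxifen it read 9.78, 9.69 and 9.67. The groups lay far apart for their spread: the lowest treated array stood 1.15 above the highest untreated one, while the arrays within a group differed by at most 0.11. The means were 8.48 ± 0.038 and 9.71 ± 0.056 (SD, n = 3 each), a difference of 1.23 ± 0.039 on the log2 scale (SE), or 2.35-fold. It was the 8th largest of the 96 rises among named genes, and 0.0478% of all probe sets had as large a rise.

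Prdm1, on chromosome 10 in band B2 (probe set 10368970), was the most variable of the 3 in untreated cells. It read 6.58, 6.76 and 6.94 (log2) in untreated replicates 1, 2 and 3, and 7.67, 7.59 and 7.68 with tamoxifen. The untreated arrays spanned 0.36 and the treated arrays 0.091, and the groups were 0.66 apart at their nearest. The means were 6.76 ± 0.18 and 7.65 ± 0.050 (SD, n = 3 each), a difference of 0.89 ± 0.11 on the log2 scale (SE), or 1.85-fold. All 3 untreated values lay between the lower quartile of their array, 6.295 to 6.349, and its median. Without a measure of background the fold of so dim a probe set is uncertain. A rise as large was seen in 0.245% of all probe sets.

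Xbp1, on chromosome 11 in band A1 (probe set 10374035), had the smallest difference. It read 11.89, 12.02 and 11.80 (log2) in untreated replicates 1, 2 and 3, and 12.55, 12.53 and 12.48 with tamoxifen. The groups again did not overlap, with 0.45 between the highest untreated and the lowest treated array. The means were 11.90 ± 0.11 and 12.52 ± 0.038 (SD, n = 3 each), a difference of 0.61 ± 0.068 on the log2 scale (SE), or 1.53-fold. As large a rise was seen in 1.27% of all probe sets. In the authors' deposited table Xbp1 stands at a signed fold of 1.52, close to the smallest rise listed there, 1.503, and 10 of the 102 rises are smaller. The same table gives 1.86 for Prdm1 and 2.36 for Bhlha15.

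**Figure D1:**
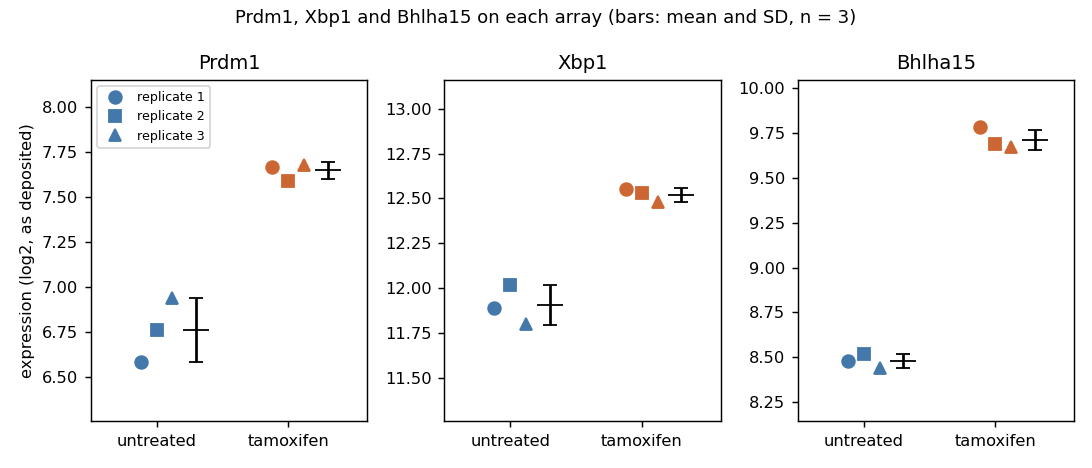
Expression of Prdm1, Xbp1 and Bhlha15 on each of the 6 arrays, in log2 units as deposited, with 1 panel per gene and vertical axes of the same height. Symbols are single arrays (the shape gives the replicate number), and bars give the mean and SD of 3 arrays. In each panel all 3 tamoxifen arrays lie above all 3 untreated arrays, and the gap is widest for Bhlha15 (1.15) and narrowest for Xbp1 (0.45).

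All 3 genes thus had treated values wholly above untreated ones, which 10.5% of all probe sets on these arrays had, and nothing is read from that count since the genes were chosen for it. The difference of group means was larger for Bhlha15 than for Prdm1 and larger for Prdm1 than for Xbp1, with all arrays and under the 9 other settings run. Among these, median centring shifts all genes of an array alike and could not change the order. Over the 9 ways to set 1 treated against 1 untreated array, the difference ran from 1.15 to 1.34 for Bhlha15, from 0.66 to 1.10 for Prdm1 and from 0.45 to 0.75 for Xbp1. The range of Bhlha15 therefore lay above the other 2 ranges, while those of Prdm1 and Xbp1 overlapped, and Xbp1 had the larger difference of these 2 in 2 of the 9 array pairs. These are differences within a probe set, and the levels of the 3 probe sets were not compared with each other.

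The replicates of the 3 genes did not deviate alike. In untreated cells Prdm1 was lowest in replicate 1, 0.18 below its group mean, and highest in replicate 3, 0.18 above it. Xbp1 was highest in untreated replicate 2, 0.12 above its mean, and lowest in replicate 3, 0.11 below. Bhlha15 stayed within 0.040 of its untreated mean on all 3 arrays. With tamoxifen no array deviated by more than 0.064 for any of the 3 genes.

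On the arrays of replicate 2, which stood apart on component 1, the genes kept their direction. Treated minus untreated in replicate 2 was 0.83 for Prdm1, 0.50 for Xbp1 and 1.17 for Bhlha15. In replicate 1 it was 1.09, 0.66 and 1.29, and in replicate 3 it was 0.75, 0.68 and 1.23. These numbers come from the sample titles, of which that of untreated replicate 1 and that of tamoxifen replicate 2 add a letter A that is not explained. Without both arrays of replicate 2 the differences were 0.92 for Prdm1, 0.67 for Xbp1 and 1.26 for Bhlha15, each within 0.06 of that with all arrays.

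**Figure D2:**
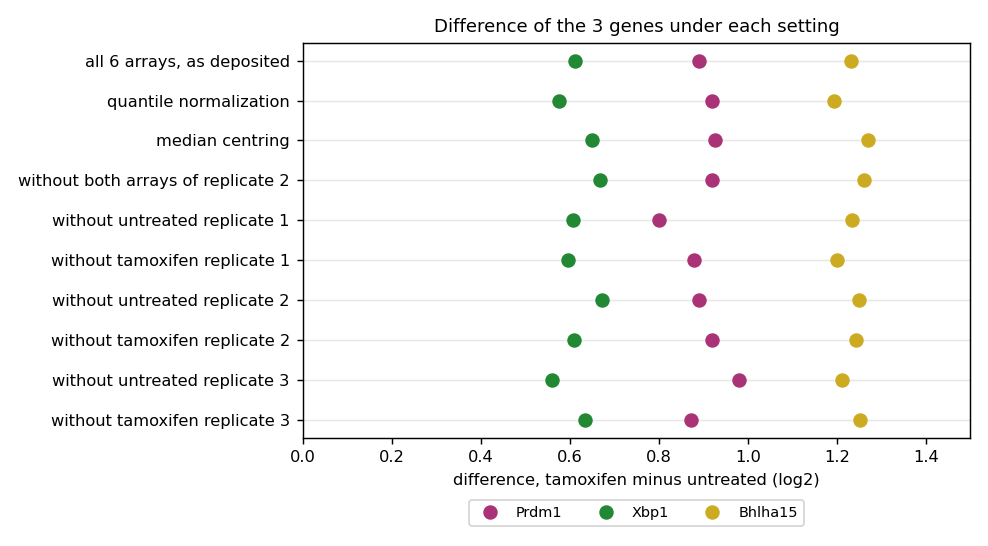
Difference between tamoxifen and untreated means (horizontal axis, log2) for Prdm1, Xbp1 and Bhlha15 with all 6 arrays as deposited and under 9 other settings (rows), namely 2 normalizations, the arrays of replicate 2 left out, and each array left out in turn. Points are single estimates and carry no error bar. Xbp1 stays between 0.56 and 0.67, Prdm1 between 0.80 and 0.98 and Bhlha15 between 1.19 and 1.27.

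The 3 genes were not each other's closest match over the 6 arrays. Likeness was measured as the root mean square difference between 2 genes' log2 values after each was centred on its own mean. It was 0.20 between Prdm1 and Xbp1, 0.21 between Prdm1 and Bhlha15 and 0.31 between Xbp1 and Bhlha15. Among the 209 other named genes considered, 57 lay nearer to Prdm1 than Xbp1 did, and 22 lay nearer to Bhlha15 than Prdm1 did. All these genes stand in a table chosen for change on the same arrays, so a shared step between the groups is part of that choice. The size of the step also enters the distance, which grows with the gap between 2 genes' group differences. Those were 0.61 for Xbp1, 0.89 for Prdm1 and 1.23 for Bhlha15. Genes near each other are thus largely genes of like difference, and no shared control is read from the distances.

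Nearest to Prdm1 were Lax1, an adaptor that dampens antigen receptor signals in lymphocytes (0.053), and Clec2i, a C-type lectin (0.076). The follicle-homing chemokine receptor Cxcr5 (0.092), Csprs (0.095) and the fatty acid elongase Elovl7 (0.10) came next. Lax1 had an SD of 0.175 among untreated arrays, beside 0.179 for Prdm1. It read 9.28, 9.51 and 9.62 (log2) in untreated replicates 1 to 3, and 10.26, 10.22 and 10.37 with tamoxifen. Nearest to Xbp1 were Pip5k1c, a kinase that makes the membrane lipid PIP2 (0.033), and the protease Casp6 (0.042). Plxnd1, a semaphorin receptor (0.052), Pold4, a small subunit of DNA polymerase delta (0.057), and the MAGE family member Maged1 (0.060) followed. Pip5k1c read 10.02, 10.18 and 10.03 in untreated replicates 1 to 3, and 10.73, 10.69 and 10.69 with tamoxifen, so that like Xbp1 it was highest in untreated replicate 2.

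Nearest to Bhlha15 were Lyz2, a lysozyme of myeloid cells (0.088), and Camkk1, a kinase that activates calmodulin-dependent kinases (0.11). The membrane protein Tmem86a (0.11), the myeloid receptor Cd300lf (0.12) and Fgd2, an exchange factor for the GTPase Cdc42 (0.12), followed. These 5 distances were larger than the 5 of Xbp1. Among the 96 named rises Bhlha15 ranked 8th and Xbp1 84th by difference, and the part of these ranks in the distances was not tested. Each of the 5 genes varied more among untreated arrays than Bhlha15, with SDs from 0.12 to 0.21 against 0.038, and their differences between groups ran from 1.04 for Fgd2 to 1.26 for Lyz2, against 1.23 for Bhlha15.

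**Figure D3:**
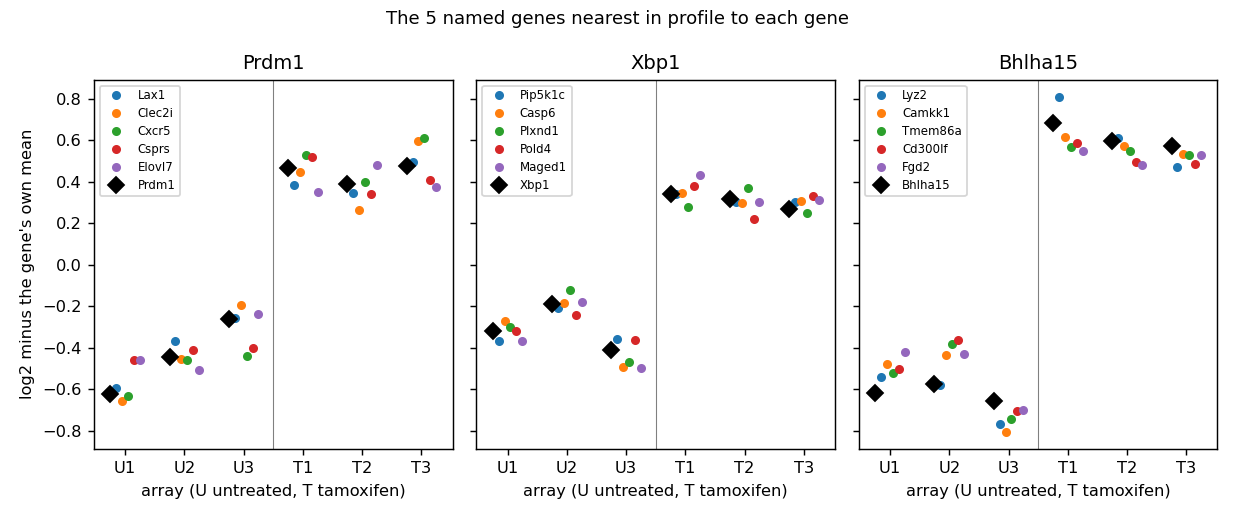
Log2 values minus each gene's own mean (vertical axis) on the 3 untreated (U) and 3 tamoxifen (T) arrays for Prdm1, Xbp1 and Bhlha15 (black diamonds) and the 5 named genes nearest to each (coloured points, shifted sideways for legibility). The genes around Xbp1 lie closest to it, the nearest at 0.033, and those around Bhlha15 are more spread on the untreated arrays.

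Genes of the wider plasma cell and secretory program were looked up in 6 lists with 214 different genes besides these 3. Of the 214, 15 have a name in the table, and these are the list genes that could be read. With limma and an adjusted p under 0.05 over all probe sets, 8 of the 15 rose, 5 fell and 2 did not pass. Over all 35557 probe sets 0.433% rose and 0.456% fell in that fit, and among the 225 named genes 66 rose and 102 fell. Because the authors had picked the table's rows for their change on these arrays, the counts are not evidence about the lists. They also changed when 1 array was left out: 1 or 2 list genes rose when any array other than untreated replicate 2 was left out, and 9 when that one was. List genes that fell then numbered between 3 and 5. Over all probe sets, calls of a rise went from 154 to between 9 and 24 without an array other than untreated replicate 2. Such fits have fewer arrays to work with, which can lower the counts by itself. Without untreated replicate 2, however, calls of a rise went up to 278, while calls of a fall went from 162 to 136. The counts thus depended on which array was left out, and the cause was not tested.

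On the secretory side, the list of XBP1 and unfolded protein response targets had 2 of 69 genes in the table, and both rose. Sec24d, a cargo-binding subunit of the COPII coat that carries proteins out of the endoplasmic reticulum, read 9.53, 9.75 and 9.60 (log2) in untreated replicates 1 to 3 and 10.16, 10.16 and 10.32 with tamoxifen. The groups did not overlap, and the difference was 0.59 ± 0.081 on the log2 scale (SE; limma adjusted p = 0.038). Kdelr3, a receptor that returns escaped endoplasmic reticulum proteins from the Golgi, read 7.83, 8.10 and 7.90 in untreated replicates 1 to 3 and 8.56, 8.44 and 8.60 with tamoxifen. Its difference was also 0.59, with a standard error of 0.089 (limma adjusted p = 0.048), and again the groups did not overlap. The median of the 2 differences was 0.59, beside -0.0092 over all probe sets, but the table lists no rise and no fall under 1.503-fold. Nothing is therefore read from this median or from those of the lists below. Both genes were near that limit. In the 6 fits that each dropped 1 array, both passed only when untreated replicate 2 was dropped (limma adjusted p = 0.032 for each), and without both arrays of replicate 2 Sec24d did not pass (limma adjusted p = 0.056). In the windows before their starts, both genes held the XBP1 core ACGTG, 1 time before Sec24d and 2 times before Kdelr3, and both held the Blimp-1 core GAAAG 1 time. None of the 3 factor genes held either. ACGTG was present in 16.6% and GAAAG in 51.5% of all windows. Of the 69 list genes only these 2 were searched, so nothing about a factor is read from the matches. None of the 30 genes listed for regulated secretion and MIST1 has a name in the table.

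Of the 30 listed plasma cell factors and surface proteins, none has a name in the table either. Neither do the 5 plasma cell markers other than Prdm1 and Xbp1, namely Sdc1, Irf4, Jchain, Tnfrsf17 and Mzb1, so these genes were not analysed here. Of 19 immunoglobulin chain genes the table names the heavy chain complex Igh, and this row fell. Plasma cells make heavy chain transcripts in bulk. The symbol stands for the whole complex, however, and which part of it the probe set reads was not tested. Igh read 11.62, 11.68 and 11.59 (log2) in untreated replicates 1 to 3 and 10.80, 10.66 and 10.80 with tamoxifen, a difference of -0.88 ± 0.066 (SE; limma adjusted p = 0.0066). Outside the list, the table also holds rows named for variable segments of the heavy and kappa chains. All of these fell, with signed folds there between -2.04 and -1.53. The 3 factor genes and the Igh row thus differed in opposite directions on the same arrays. Whether whole antibody transcripts fell was not tested.

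B cell identity genes, several of which Blimp-1 is known to repress, had 7 of 33 members in the table, of which 4 rose and 3 fell (median difference 0.65). Spib, an Ets factor of B cells and a known Blimp-1 target for repression, read 9.56, 9.71 and 9.31 (log2) in untreated replicates 1 to 3 and 10.55, 10.30 and 10.49 with tamoxifen. It was higher on all 3 treated arrays, by 0.92 ± 0.12 (SE; limma adjusted p = 0.031), and when single arrays were dropped in turn it passed only when that was untreated replicate 2. Cxcr5, whose loss accompanies plasma cell formation, rose 2.03-fold (limma adjusted p = 0.0083), from 6.86 ± 0.10 to 7.88 ± 0.10 (SD, n = 3 each). Its untreated arrays, like those of Prdm1, read below the median of every array (7.52 at least), so this fold is uncertain too. The class II chaperone chain H2-DMb2 rose 2.68-fold and the receptor chain Cd79b 1.57-fold, while the kinase Blk fell 1.75-fold (largest limma adjusted p of these 3, 0.021). The recombinase genes Rag1 and Rag2, which are off in plasma cells, fell, with log2 differences of -2.28 and -1.83 (limma adjusted p of 0.00082 for Rag1 and 0.0031 for Rag2). A second, dimmer Rag2 probe set has a smaller signed fold in the authors' deposited table, -1.64 against -3.56.

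Among 39 upstream regulators of Prdm1 and E protein partners, 5 were in the table, of which 2 rose and 1 fell (median difference 0.63). Ikzf3, the Ikaros family factor Aiolos needed for long-lived plasma cells, rose by 0.63 ± 0.075 on the log2 scale (SE; limma adjusted p = 0.025), from arrays at 7.93 to 8.16 to arrays at 8.62 to 8.69. The cytokine signalling inhibitor Cish rose by 1.07 ± 0.13 (SE; limma adjusted p = 0.025). The NF-kB subunit Rel fell by 0.70 (limma adjusted p = 0.014). Id2, an inhibitor of E proteins, had a difference of 0.63 (limma adjusted p = 0.14), and the AP-1 subunit Jun one of -0.82 (limma adjusted p = 0.12). Of the 13 list genes that passed, 4 kept their call whichever single array was dropped, namely Rag1, Rag2, H2-DMb2 and Igh.

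**Figure D4:**
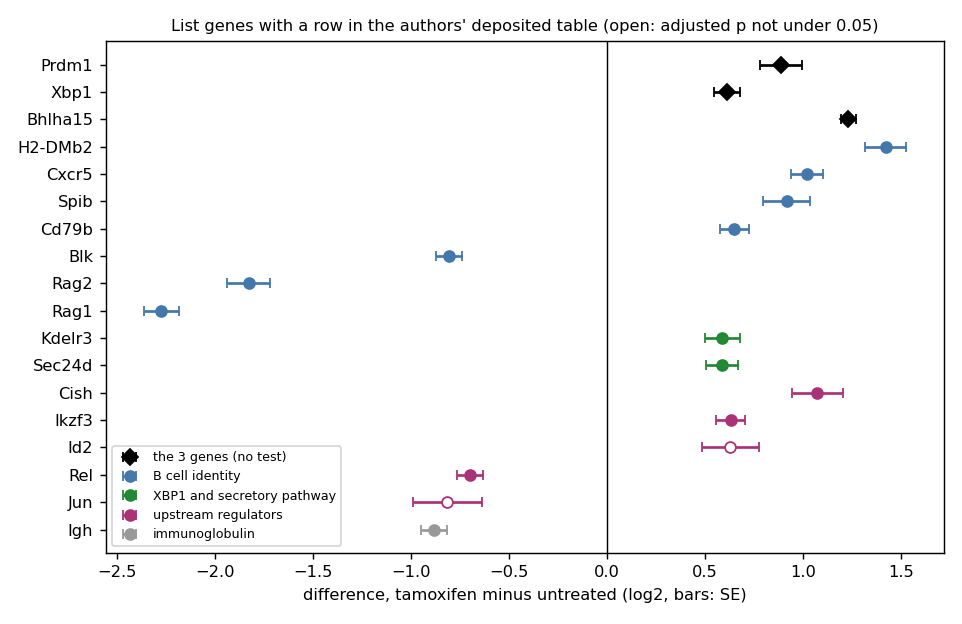
Difference between tamoxifen and untreated means (horizontal axis, log2) for Prdm1, Xbp1 and Bhlha15 (black diamonds) and the 15 list genes with a name in the authors' deposited table, coloured by list. Bars are standard errors, from the 3 and 3 arrays alone for the diamonds and from the limma fit for the circles, and open circles did not pass. The secretory genes Sec24d and Kdelr3 lie at 0.59, next to Xbp1 at 0.61, while Igh lies at -0.88. The table lists no rise under 1.503-fold, and Sec24d, Kdelr3 and Xbp1 all lie near that limit, so nothing is read from their closeness.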

How the data were processed

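Total RNA from 6 cultures was labelled with biotin and read on 1-colour arrays, per the labels. The deposited log2 values per probe set were used as they stood. The base of the logarithm was checked against the authors' folds, with a largest discrepancy of 0.0212. The submitters' processing notes list Partek, with no role. How background was corrected, how arrays were normalized and which design they had is unstated (not given in the sources used here). In all, the authors' deposited table holds 251 selected rows with a p-value and a signed fold, used here as a score; its p-values were not used.

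Groups came from the sample titles. Gene symbols were updated through RefSeq (GRCm38.p6): accessions named 200 of the 251 rows, gene numbers 20, symbols 7 and synonyms 5, while 8 kept the deposited name and 11 stayed unnamed. The brightest probe set stood for a gene. limma 3.58.1 in R 4.3.3 (lmFit, eBayes, 2 groups, no covariate) was fitted to all 35557 probe sets with Benjamini-Hochberg adjustment, and was tested on simulated data. Standard errors of Prdm1, Xbp1 and Bhlha15 come from their own arrays. The submitters call the replicates biological without naming shared days, so p-values reflect only how these arrays varied. Alternatives were 2 normalizations, leaving out arrays, dim or low-numbered probe sets, and a replicate block. Genes and lists were chosen with earlier results of these data known. Named were the 3 genes, every list gene and marker with a name, and the 5 nearest genes to each, passing over predicted genes. Python 3.11.15 and matplotlib 3.10.9 drew the figures.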

Additional observations from a re-analysis of the deposited data

How the results depend on the processing

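The differences of Prdm1, Xbp1 and Bhlha15 moved by less than the larger of their 2 group SDs under each of the 9 settings run for them. In the 6 settings that left out 1 array this was fixed in advance. Dropping 1 of 3 values always moves their mean by less than their SD. None of the 29 list and nearest genes reversed in any setting. Each of the 3 genes had 1 named row, so no mean over probe sets was possible. Counts of called probe sets, 154 higher and 162 lower, moved more, and the cause was not tested. Higher and lower calls were 270 and 232 without dim probe sets, 332 and 308 without the low-numbered ones, 247 and 85 without both arrays of replicate 2, 212 and 309 with quantile normalization and 130 and 104 with median centring. Fits that each dropped 1 array gave between 9 and 278 higher and between 28 and 136 lower calls. The list genes called, 8 higher and 5 lower, then numbered between 1 and 9 and between 3 and 5. Sec24d and Kdelr3 also missed the threshold with median centring (limma adjusted p = 0.052 and 0.067). The replicate numbers were taken from titles of which 2 add an unexplained letter. Same-numbered arrays did not deviate alike: their deviations correlated at -0.229, -0.45 and -0.0957. The value furthest below 0 was that of replicate 2, whose arrays lay in the reverse order on component 1. A negative correlation is not the absence of a link, and its cause was not tested. Calls with the replicate block came to 6 higher and 16 lower probe sets, and to 1 higher and 2 lower list genes. Quantile normalization kept 14 of the 15 nearest genes. Median centring shifts all genes of an array alike and leaves the distances unchanged, so it could not test the nearest genes. No measure of background was used, so what dimness limits is unknown beyond the fit without dim probe sets.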
